A study of Mus musculus with 6 samples.

Results

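The Gimap family of GTPases of the immune-associated nucleotide-binding type was followed through 6 libraries of tumor RNA from NeuT/ATTAC+AP mice. The genes were taken by symbol, as the 8 listed genes Gimap1, Gimap3, Gimap4, Gimap5, Gimap6, Gimap7, Gimap8 and Gimap9 among the 55385 genes in each deposited table, and all 8 passed the filter on low counts. They were chosen by their measured counts and TPM in this same comparison, as a family lower in DMHCA libraries than in controls, so their difference between the groups is given as a description, and where calls from the fits over all genes are printed for them, they are not read as support. The 3 control and 3 DMHCA libraries came from female mice that carried an MMTV-driven, constitutively active rat ErbB2 transgene (NeuT) and an FKBPv-caspase-8 fusion driven by the FABP4 promoter (ATTAC), which acts in fat cells. Mice of both groups are described as receiving the dimerizer AP20187 at 0.4 mg/kg, 3 times per week from 6 weeks of age, which removes part of the mammary fat and leaves fibrotic tissue in its place. The DMHCA group also ate a diet with 0.05% DMHCA, an agonist of the liver X receptors (about 100 mg/kg), from 8 weeks of age. The controls' treatment label can be read as AP20187 with vehicle or as vehicle alone, and the labels name the tissue as mammary gland fibrosis where the study describes tumors. The epithelial marker Epcam was at 926 to 1494 TPM (a level corrected for transcript length and scaled to the same total in each library). Levels differed among epithelial markers, with Krt18 at 842 to 1903 TPM and Krt19 at 1.51 to 435 TPM.

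Gimap proteins are small GTPases found mainly in lymphocytes, where they sit on or near membranes of organelles such as the mitochondrion, lysosome and Golgi apparatus. They are best known for keeping resting T and B cells alive, and loss of Gimap5 leaves rats and mice with few T cells. Their genes lie side by side in a cluster on a mammalian chromosome, and members bind each other through the GTPase domain. Signal from these genes in a tumor is therefore commonly read together with lymphocyte markers, and in bulk tissue fewer cells of a type and less RNA per cell cannot be told apart.

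Facts of the libraries that touch every value come first. The biological coefficient of variation, which measures how far libraries differ beyond counting noise, was 0.0327 for DMHCA libraries 1 and 3 and 0.376 to 0.579 for the other 5 pairs within a group, so this pair was taken as 1 sample. This left 3 control and 2 DMHCA samples. Expected counts summed to 46358654 to 63420620 per control library and 52330938 to 55539411 per DMHCA library. Control library 3 stood apart, with 18 of 18 T cell markers, 14 of 14 B cell markers and 6 of 6 adipocyte markers highest in it. Fold changes of the members and medians of the gene lists are therefore given with and without that library. As a check of the treatment, the LXR target Abca1, a cholesterol exporter, was at 6.48 to 14.87 TPM in controls and 29.16 to 39.03 TPM in DMHCA libraries. Srebf1, a regulator of lipid synthesis and an LXR target, was at 95.23 to 233.62 TPM in controls and 658.84 to 940.76 TPM with DMHCA. The groups did not overlap for either gene. In edgeR's quasi-likelihood test 0 of 19427 genes passed an adjusted p of 0.05 and 1478 passed an unadjusted p of 0.05, and DESeq2 called 244 genes at the adjusted threshold on the same 5 samples.

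The 8 genes lie within 124 kb of chromosome 6 (chr6:48647234-48770851, GRCm38), 6 on the plus strand and 2, Gimap6 and Gimap3, on the minus strand. In order along the chromosome they are Gimap8, Gimap9, Gimap4, Gimap6, Gimap7, Gimap1, Gimap5 and Gimap3. The 250 bases before the start of transcription, from RefSeq on GRCm38.p6, are shown for the pair of genes that varied most between libraries (Gimap3 and Gimap7), for the gene that varied least (Gimap9) and for Gimap5, the near-copy of Gimap3. Capitals mark the letters GGAAGT (the core that ETS factors bind) or TGTGGT (the core that RUNX factors bind) on either strand, so that TGTGGT on the opposite strand reads ACCACA.
Gimap3, chr6:48770852-48771101, - strand: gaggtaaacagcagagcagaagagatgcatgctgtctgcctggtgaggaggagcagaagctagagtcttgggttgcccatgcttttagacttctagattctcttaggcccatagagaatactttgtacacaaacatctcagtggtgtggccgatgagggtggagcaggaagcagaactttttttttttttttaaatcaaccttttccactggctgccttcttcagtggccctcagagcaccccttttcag
Gimap7, chr6:48718371-48718620, + strand: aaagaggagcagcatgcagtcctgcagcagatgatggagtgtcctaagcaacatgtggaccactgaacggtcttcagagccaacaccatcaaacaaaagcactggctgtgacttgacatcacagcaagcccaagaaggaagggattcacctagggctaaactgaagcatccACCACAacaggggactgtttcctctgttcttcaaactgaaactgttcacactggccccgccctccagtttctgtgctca
Gimap5, chr6:48745947-48746196, + strand: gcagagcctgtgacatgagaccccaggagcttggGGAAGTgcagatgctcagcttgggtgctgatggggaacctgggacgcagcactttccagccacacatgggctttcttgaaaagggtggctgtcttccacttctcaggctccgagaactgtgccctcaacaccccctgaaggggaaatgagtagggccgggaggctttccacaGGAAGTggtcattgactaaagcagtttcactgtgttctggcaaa
Gimap9, chr6:48675885-48676134, + strand: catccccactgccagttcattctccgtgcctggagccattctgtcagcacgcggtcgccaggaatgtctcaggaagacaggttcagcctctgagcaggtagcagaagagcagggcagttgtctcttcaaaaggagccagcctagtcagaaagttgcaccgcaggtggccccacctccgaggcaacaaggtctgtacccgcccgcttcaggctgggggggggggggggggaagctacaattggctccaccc

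GGAAGT was found on either strand in the windows of 2 of the 8 members, Gimap5 with 2 matches and Gimap6 with 1. Of all 32851 RefSeq windows searched, 19.7% hold it. For Gimap3 the searched window is listed from base 48770802, lower than the 250 bases printed above, so the windows counted may differ from these in length. TGTGGT was found in the windows of 3 members, Gimap1, Gimap4 and Gimap7, against 14.0% of all windows. Neither motif was found before Gimap3, whose levels followed those of Gimap7 most closely, so the pair did not share these letters. The LXR half-site AGGTCA, held by 14.0% of all windows, was in 0 of the 8 members' windows. The absence says only that these letters are not in the 250 bases before the annotated starts.

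Gimap3 and Gimap5 also matter for how reads were assigned. Their coding sequences are 86.9% identical and share an unbroken run of 140 bases, which covers coding bases 175 to 314 of Gimap3 and 187 to 326 of Gimap5.
Gimap3 and Gimap5, shared coding run: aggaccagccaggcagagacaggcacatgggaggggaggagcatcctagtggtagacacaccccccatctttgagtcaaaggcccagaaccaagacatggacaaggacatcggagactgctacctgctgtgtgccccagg

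No other pair of members shared a coding run over 17 bases in the sequences compared, which for Gimap8 covered 1047 bases. RSEM divides a read that fits several genes between them, and a count within 0.005 of a whole number was taken as whole. The expected counts of Gimap3 and Gimap5 were not whole in 5 of 6 libraries each. Those of Gimap1 and Gimap8 were not whole in 6 of 6 and those of Gimap6 in 2, while those of Gimap4, Gimap7 and Gimap9 were whole in all 6. In control library 1 the counts 445.16 and 129.84 summed to 575, and in control library 2 the counts 36.53 and 71.47 summed to 108. In control library 3 and DMHCA libraries 1 and 3 the sums were 3982.81, 127.66 and 111.36, which are not whole, so reads there were also divided with other features. The split between Gimap3 and Gimap5 is thus an estimate. With both counted as 1 feature, a choice made after seeing the data, the log2 fold change was -3.97 (SE 1.53), between those of the separate genes given below.

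Levels of the family differed more among the controls than between the lowest control and the DMHCA libraries. Summed TPM of the 8 genes was 75.2, 29.59 and 330.99 in control libraries 1, 2 and 3 and 31.57, 35.51 and 29.28 in DMHCA libraries 1, 2 and 3. Control library 3 was far above the rest, control library 1 came next, and control library 2 lay among the DMHCA libraries, so the groups overlapped in the family's total. All 8 members were highest in control library 3, as were 27.4% of all genes tested.

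**Figure D1:**
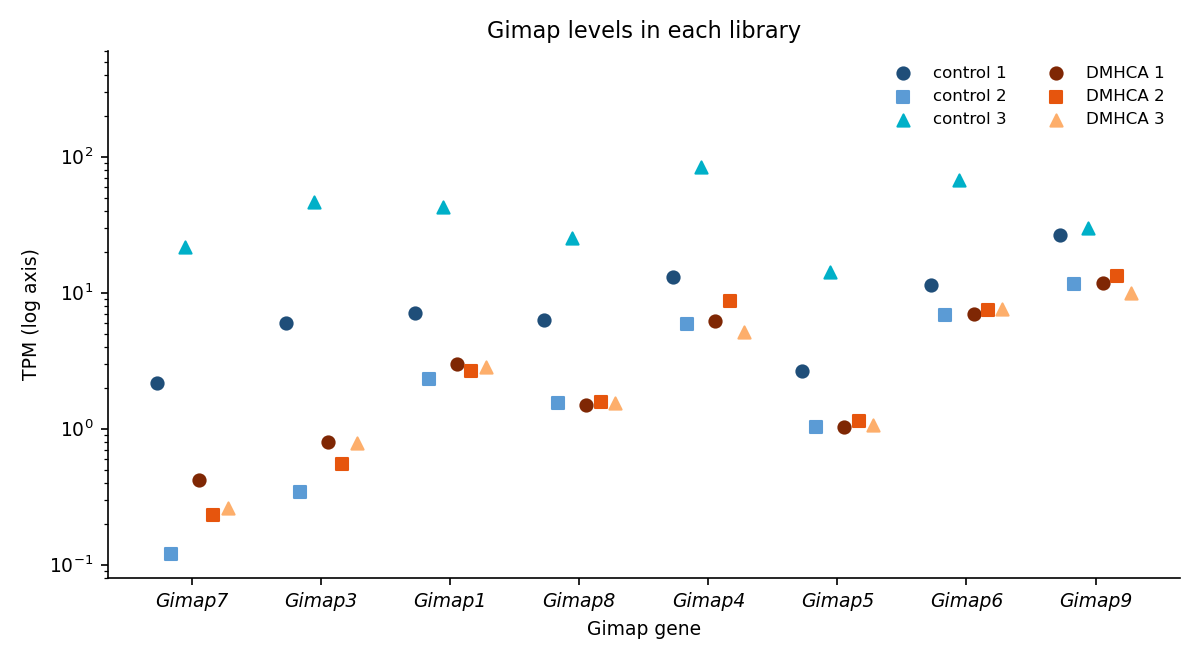
TPM of each Gimap gene (log axis) in the 3 control and 3 DMHCA libraries, 1 point a library, genes ordered by the ratio of control library 3 to control library 2. Control library 3 is the top point of every gene, while Gimap9 runs from 10.01 to 29.97 TPM and Gimap7 from 0.12 to 21.6 TPM.

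Gimap5, which keeps peripheral T cells quiescent and alive, was at 2.66, 1.02 and 14.12 TPM in control libraries 1, 2 and 3 and at 1.02, 1.13 and 1.07 TPM in DMHCA libraries 1, 2 and 3. The mean was 5.93 ± 7.14 TPM (SD, n = 3) in controls and 1.09 ± 0.0601 TPM (SD, n = 2) with DMHCA, and control library 2 was level with the DMHCA libraries. On TMM-scaled counts the log2 fold change of DMHCA over control was -2.29 (SE 1.05), and -0.77 without control library 3.

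Gimap3, the near-copy of Gimap5, was at 5.93, 0.34 and 46.55 TPM in the controls and at 0.80, 0.55 and 0.79 TPM in the DMHCA libraries. Its lowest library was a control, below every DMHCA library, and its highest was a control as well. The means were 17.6 ± 25.2 TPM (SD, n = 3) and 0.673 ± 0.173 TPM (SD, n = 2). Its log2 fold change was -4.81 (SE 1.84) over all samples and -2.24 without control library 3, where control library 1 alone stood above DMHCA.

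Gimap1, needed for the survival of mature T and B cells, was at 7.09, 2.30 and 42.78 TPM in controls and at 2.98, 2.67 and 2.86 TPM with DMHCA. In TPM control library 2 was the lowest of the 6, while on TMM-scaled counts it was just above the DMHCA samples, at a ratio of 0.865 and 0.781 for DMHCA over that library. The log2 fold change was -2.69 (SE 1.15), and -0.85 without control library 3.

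Gimap4, linked to T cell death and cytokine release, had 13.09, 5.88 and 83.40 TPM in the controls and 6.17, 8.63 and 5.13 TPM in the DMHCA libraries. DMHCA library 2 was above control library 2 and the groups overlapped. Its log2 fold change was -2.31 (SE 1.07), and -0.53 without control library 3. Gimap8, a larger member with more than a lone GTPase domain, had 6.24, 1.54 and 25.07 TPM in controls and 1.5, 1.56 and 1.55 TPM with DMHCA. In TPM control library 2 was level with the DMHCA libraries, and control library 1 was 3.02 times control library 2 on TMM-scaled counts. Its log2 fold change was -2.98 (SE 1.07), and -1.51 without control library 3.

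Gimap6, which binds the autophagy protein Gabarapl2, had 11.38, 6.88 and 67.50 TPM in controls and 6.94, 7.44 and 7.61 TPM with DMHCA. Control library 2 again lay beside DMHCA. The log2 fold change was -2.16 (SE 0.98), and -0.53 without control library 3.

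Gimap7, a GTPase that can stimulate GTP hydrolysis by other family members, showed the widest range of the family. It was at 2.18, 0.12 and 21.60 TPM in the controls and at 0.42, 0.23 and 0.26 TPM in the DMHCA libraries. These levels rested on 94, 7 and 890 reads in controls and 18, 9 and 11 reads with DMHCA, and the exact Poisson 95% interval was 2.81 to 14.4 reads for control library 2 and 4.12 to 17.1 for DMHCA library 2, which covers counting error only. At this depth control library 2 and DMHCA library 2 could not be told apart. The log2 fold change was -4.87 (SE 1.98), and -2.02 without control library 3.

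Gimap9, a close relative of Gimap7 in sequence (64.5% identical coding bases), behaved unlike it. It was at 26.63, 11.51 and 29.97 TPM in controls and at 11.74, 13.30 and 10.01 TPM with DMHCA, so that control libraries 1 and 3 were nearly level. Its highest sample was 2.83 times its lowest on TMM-scaled counts, against 145 times for Gimap7 and 105 times for Gimap3. The mean was 22.7 ± 9.84 TPM (SD, n = 3) in controls and 12.1 ± 1.71 TPM (SD, n = 2) with DMHCA. Its log2 fold change of -1.06 (SE 0.42) was the smallest of the family and moved least without control library 3, to -0.85.

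**Figure D2:**
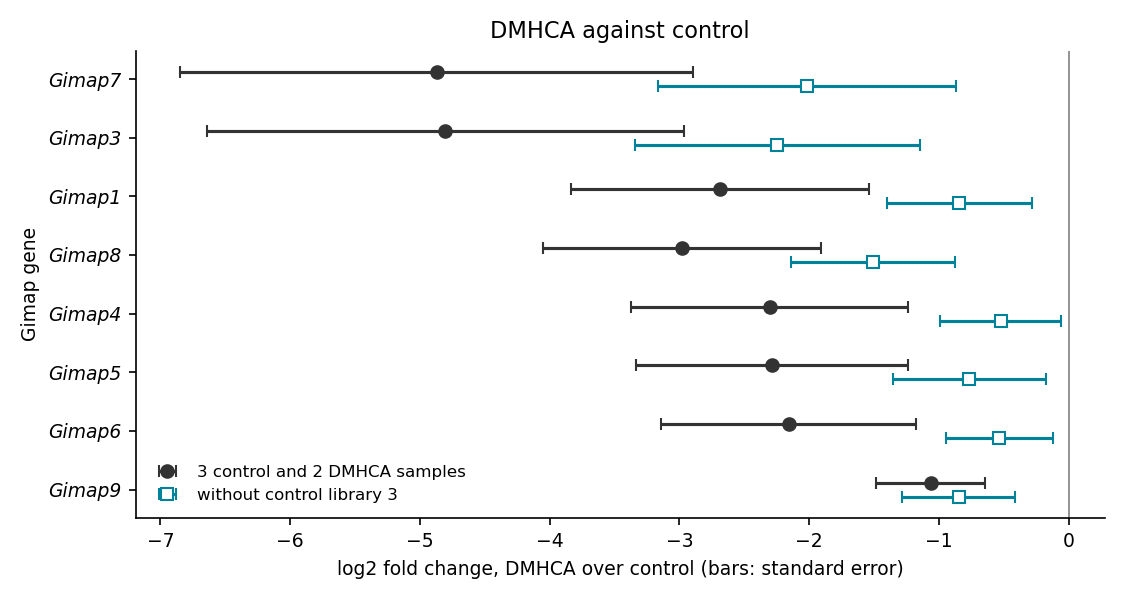
Log2 fold change of DMHCA over control (x axis) for each Gimap gene from edgeR, with bars of 1 standard error, over 3 control and 2 DMHCA samples (filled) and without control library 3 (open). The filled points run from -4.87 to -1.06 and the open points from -2.24 to -0.53, all below 0.

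Across the members the median log2 fold change was -2.50, against -0.03 for all genes tested, and without control library 3 it was -0.85, against 0.01. All 8 were below 0 in both fits, as were 52% of all genes tested with control library 3 and 49.2% without it. Every control sample was above every DMHCA sample on TMM-scaled counts for 5 of 8 members (Gimap1, Gimap5, Gimap6, Gimap8 and Gimap9), and 12.2% of all genes tested had this order. In TPM this was so for 0 of the 8, because control library 2 lay at or below a DMHCA sample for each. Since the members were chosen for this direction, nothing is read from these counts. None of the 8 had an adjusted p under 0.05 by edgeR (0.644 for each), and the share of all genes that did was 0%. DESeq2 on the 6 libraries as separate samples, which enters DMHCA libraries 1 and 3 as independent, called Gimap1, Gimap3, Gimap4, Gimap7 and Gimap8, 5 of 8, where it called 3.98% of all genes and 2.68% as lower.

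The order of the levels within a library also changed. In the DMHCA libraries Gimap9 was highest at 10.01 to 13.30 TPM, followed by Gimap6 and Gimap4, whose ranges overlapped (6.94 to 7.61 and 5.13 to 8.63 TPM). Below them came Gimap1, Gimap8, Gimap5, Gimap3 and Gimap7 in that order, with ranges over the libraries that did not overlap. In control library 3 the order was Gimap4, Gimap6, Gimap3, Gimap1, Gimap9, Gimap8, Gimap7 and Gimap5.

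As a share of the family's TPM, Gimap9 made up 35.4%, 38.9% and 9.05% in control libraries 1, 2 and 3 and 37.2%, 37.5% and 34.2% in DMHCA libraries 1, 2 and 3. Gimap3 and Gimap7 together made up 10.8%, 1.55% and 20.6% in the controls and 3.86%, 2.20% and 3.59% in the DMHCA libraries. The make-up of control library 2 was thus close to that of the DMHCA libraries, control library 3 had the smallest share of Gimap9, and control library 1 paired a large share of Gimap9 with a raised share of Gimap3 and Gimap7. Gimap5 kept a share of 3.18% to 4.27% in all 6 libraries.

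**Figure D3:**
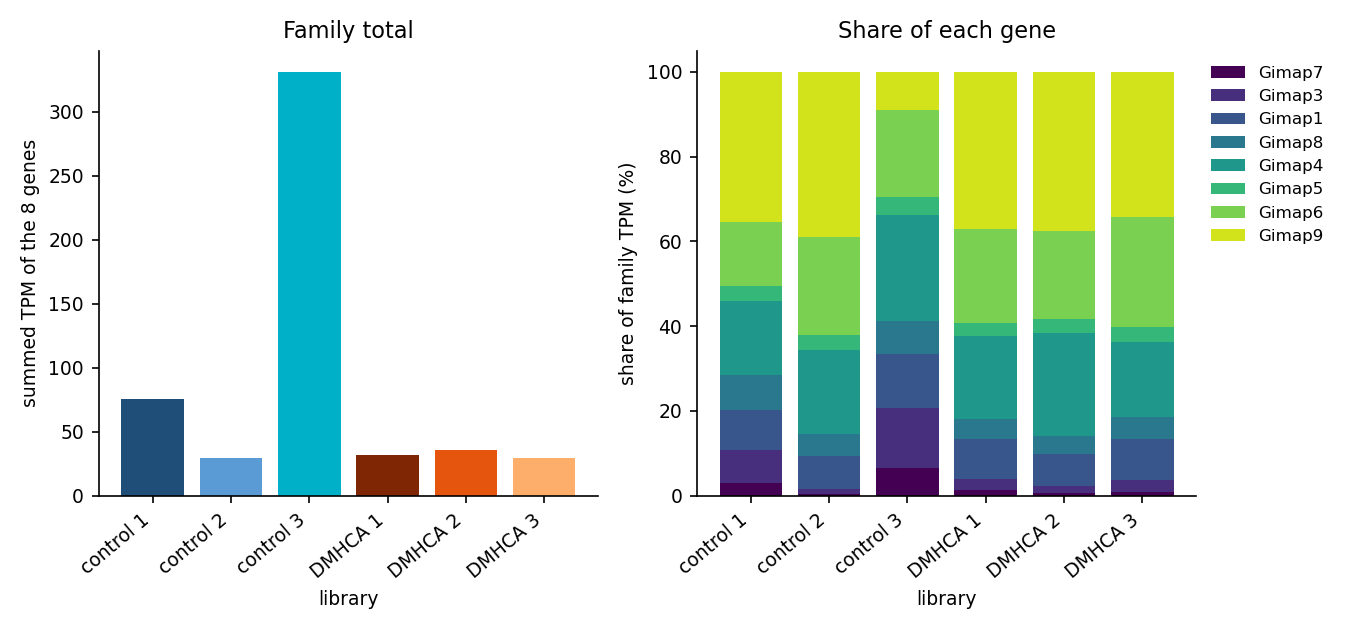
Left, summed TPM of the 8 Gimap genes in each library. Right, the percentage of that sum taken by each gene, in which Gimap9 holds 9.05% in control library 3 and 34.2% to 38.9% in the other 5 libraries.

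Members were also compared by profile, as the root mean square difference between their log2 values over the 5 samples after centring, where 0 means the same pattern. Gimap3 and Gimap7, which lie at opposite sides of Gimap1 and Gimap5 in the cluster, were nearest to each other among all 13855 genes compared, at 0.140. Gimap1, Gimap4, Gimap5 and Gimap6 were at 0.169 to 0.274 from each other. Gimap9 was 2.03 and 2.04 from Gimap3 and Gimap7, the longest distances within the family. The 5 samples share control library 3, which sets much of each profile.

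The 10 genes with the profile most like the family's mean, among 13848 genes, were Grap2 (0.0749), Slamf6, Wnt4, Ptpn22, Trp63, S1pr4, Traf3ip3, Dusp2, Rasgrp2 and Cd69 (0.196). Grap2 is an adaptor of T cell receptor signaling, Slamf6 and Cd69 are lymphocyte surface receptors, Ptpn22 is a phosphatase of lymphocytes, and S1pr4 is a sphingosine phosphate receptor of lymphocytes. Wnt4, a secreted signal of the mammary epithelium, and Trp63, a transcription factor of basal epithelium, are not lymphocyte genes. By a choice made after seeing the values, the 5 genes nearest to Gimap9 were Dkk2, Dnm3os, Gulp1, Avpr1a and Calhm5, at 0.105 to 0.169.

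Lymphocyte markers moved with the family across the libraries. The 18 T cell markers had a median log2 fold change of -3.93, with 4 of 18 lower and 0 higher at an unadjusted p under 0.05 by edgeR, where 4.08% of all genes were lower and 3.53% higher. Without control library 3 the median was -1.14, with 1 of 18 lower, against 3.27% of all genes. The count of T cell markers depended on the fit, at 14 with DESeq2 on the same 5 samples, 17 without control library 2 and 0 without DMHCA library 2, where 4.35%, 6.48% and 1.48% of all genes were lower in turn. Their summed TPM was 88.85, 37.45 and 689.38 in controls and 39.23 to 48.32 with DMHCA. Trbc2, a T cell receptor constant chain, was at 14.44, 1.21 and 148.05 TPM in controls and 1.26 to 2.93 TPM with DMHCA, an order much like that of Gimap3, and Cd3d, a subunit of the same receptor complex, was at 2.05, 0.22 and 24.97 TPM against 0.27 to 0.45 TPM. Thy1, also made by stromal cells, was at 23.64, 29.44 and 59.67 TPM against 25.74 to 26.62 TPM and supplied most of the list's total where the rest was low. No T cell marker was at 0 in any library. The part of T cells in the differences of the family was not tested.

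The 14 B cell markers had the lowest median of the lists, -6.14, with 11 of 14 lower at an unadjusted p under 0.05. Without control library 3, 8 of them could be tested, with 1 lower and a median of -2.61. Their summed TPM was 65.04, 4.19 and 485.47 in controls and 6.82 to 10.34 with DMHCA. Cd79a, a subunit of the B cell receptor, was at 10.79, 0.06 and 101.54 TPM in controls and 0.28 to 0.44 TPM with DMHCA, and Pax5, the factor that fixes B cell identity, was at 0 in DMHCA library 2. Genes of lymphoid tissue stroma and high endothelial venules, the vessels through which lymphocytes enter lymph nodes, had 5 of 8 lower and a median of -4.83, and 2 of 6 lower with a median of -1.57 without control library 3. Glycam1, a mucin of these venules and a milk protein, was at 119.37, 0.77 and 1132.66 TPM in controls and 1 to 3.40 TPM with DMHCA, and Ccl19, which draws naive T cells, was at 8.39, 0.73 and 103.80 TPM against 0.30 to 0.59 TPM. Summed TPM of this list was 181.5, 5.10 and 1702.95 in controls and 7.5 to 19.47 with DMHCA, and 2 of its genes, named after their values were seen, were at 0 in some libraries (Chst4 and Madcam1). The part of lymphoid tissue in the differences of the family was not tested.

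Of 12 naive and resting lymphocyte genes, 4 were lower at an unadjusted p under 0.05 and the median was -2.67, while without control library 3, 2 of 11 were lower and the median was -0.98. Klf2, which holds T cells in quiescence, was at 14.48, 16.54 and 30.86 TPM in controls and 11.50 to 12.02 TPM with DMHCA. Of 11 effector and NK cell genes tested, 1 was lower and the median was -1.96, and without control library 3 the median was -0.07. Gzmb, a granzyme of killer cells, was at 1.46, 0.28 and 3.87 TPM in controls and at 6.91, 0.89 and 5.11 TPM in DMHCA libraries 1, 2 and 3. In the fit with control library 3, Gzmb was the gene of this list with a log2 fold change above 0. Without that library other genes of the list were above 0 as well. Nkg7, a granule protein of killer cells with the highest level of the list, was at 3.22, 0.62 and 21.02 TPM in controls and 3.11, 1.19 and 2 TPM with DMHCA. Prf1, the pore-forming perforin, was at 0.63, 0.05 and 3.10 TPM against 0.17 to 0.21 TPM.

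Markers of endothelial, myeloid, epithelial and fibroblast cells were counted in the same way. The 18 blood endothelial markers had a median of 0.19 with and without control library 3, with 0 lower and 2 higher at an unadjusted p under 0.05, and 1 higher without that library, where 2.16% of all genes were higher. Cdh5, the cadherin of endothelial junctions, was at 9.63, 6.30 and 7.22 TPM in controls and 13.26, 17.41 and 13.23 TPM with DMHCA. The 12 macrophage and monocyte markers had 0 lower and 0 higher and a median of -0.26, or -0.06 without control library 3, although Lyz2, a lysozyme of myeloid cells, reached 1335.35 TPM in control library 3 and was at 352.19 to 558.21 TPM in the other controls. Pan-leukocyte genes had 1 of 10 lower with and without control library 3, and their median was -1.46 with it and -0.44 without it. Among them Ptprc (CD45) was at 20.96, 7.77 and 72.78 TPM in controls and 11.44 to 11.48 TPM with DMHCA. The medians were -0.09 for 11 epithelial markers, -0.17 for 10 fibroblast markers and 0.14 for 6 lymphatic endothelial markers, with 0 lower and 0 higher in each. Without control library 3 they were -0.22, -0.01 and 0.79, again with 0 lower and 0 higher.

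Adipocyte markers behaved differently from the lymphocyte lists when control library 3 was left out. Of 6, 5 were lower both with it (median -4.60) and without it (median -3.32). Adipoq, the fat cell hormone adiponectin, was at 16.76, 4.84 and 67.33 TPM in controls and 0.73 to 1.45 TPM with DMHCA. In TPM control library 2 stood above every DMHCA library for Adipoq, but not for every adipocyte marker, and not for the Gimap family's total. Summed TPM of the adipocyte list was 204.29, 124.09 and 919.86 in controls and 69.93 to 70.66 with DMHCA, and its part in the differences of the family was not tested.

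**Figure D4:**
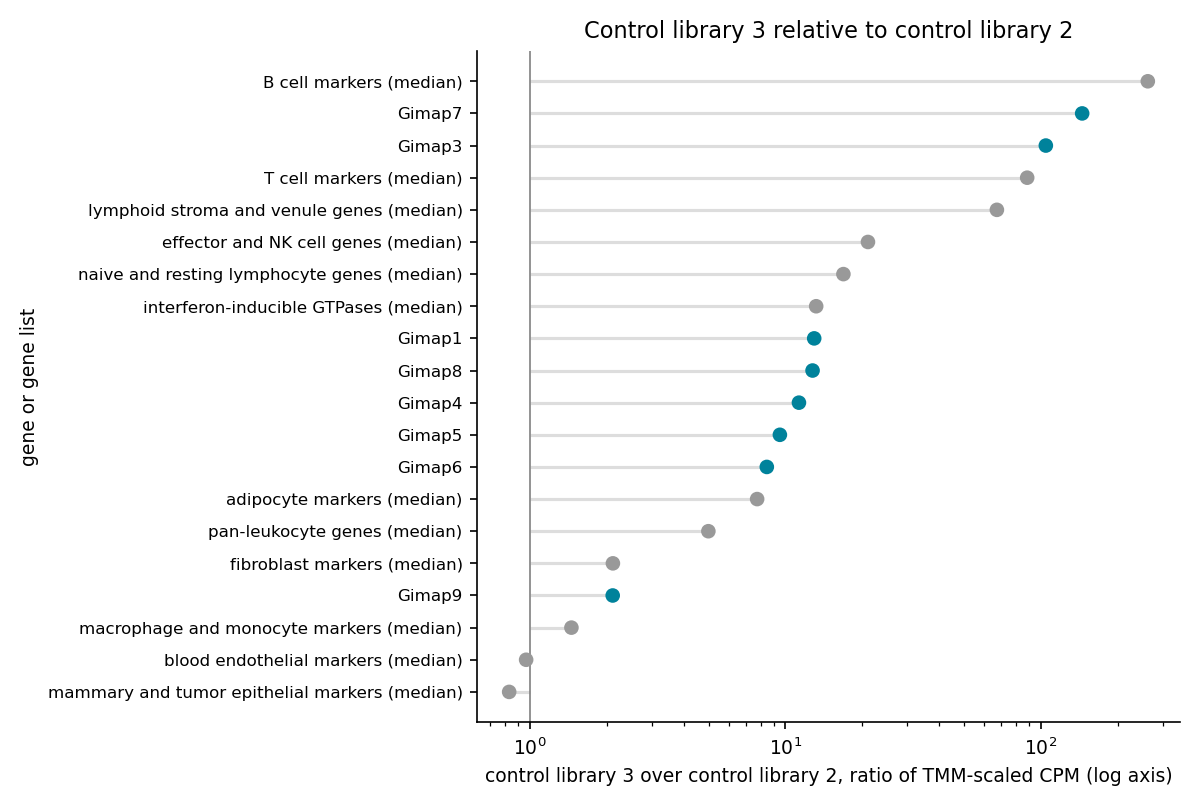
Ratio of control library 3 to control library 2 in TMM-scaled CPM (log axis) for each Gimap gene (teal) and for the median of each gene list (grey). Gimap7 and Gimap3 (145 and 105) lie between the B cell and T cell lists (262 and 88.3), 5 members lie at 8.45 to 13.0, and Gimap9 is at 2.11, beside the fibroblast list at 2.11.

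The controls share a treatment label, and the ratios between them rest on 1 library each. From control library 2 to control library 3, Gimap7 differed 145-fold and Gimap3 105-fold, near the medians of the B cell markers (262-fold) and T cell markers (88.3-fold). Gimap1, Gimap8, Gimap4, Gimap5 and Gimap6 differed 13.0, 12.8, 11.3, 9.51 and 8.45-fold, below the median of the naive and resting lymphocyte genes at 16.9-fold and between or near those of the interferon-inducible GTPases at 13.2-fold and the adipocyte markers at 7.75-fold. Gimap9 differed 2.11-fold, as did the median of the fibroblast markers. Between control libraries 1 and 2 the ratios were 13.6 for Gimap7 and 12.2 for Gimap3, 3.02 for Gimap8 and 1.32 to 1.95 for the others, against medians of 41.9 for B cell and 7.44 for T cell markers. Gimap7 and Gimap3 led the family in both ratios.

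Ratios within a library remove differences in the amount of a cell type's RNA as far as its markers measure them. The family's TPM divided by that of Ptprc was 3.59, 3.81 and 4.55 in the controls and 2.76, 3.09 and 2.55 in DMHCA libraries 1, 2 and 3. The controls were above the DMHCA libraries, but the highest sample was 1.71 times the lowest, compared with 11.2 times for the family's TPM itself. Divided by the whole T cell list the family ranged 1.89-fold, by the T cell markers without Thy1 7.03-fold and by the B cell markers 10.4-fold, with control library 3 the lowest in all 3 ratios. Divided by the blood endothelial markers, the family ranged 11.6-fold, with control library 3 the highest.

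Gimap3 over the summed B cell markers was 0.0912, 0.0811 and 0.0959 in controls and 0.0774, 0.0806 and 0.0890 with DMHCA. This ratio ranged 1.19-fold over the 5 samples, and that of Gimap7 ranged 1.55-fold. Over the T cell markers without Thy1, a denominator chosen after seeing the data, Gimap3 ranged 2.45-fold and Gimap7 2.29-fold, while over the whole T cell list they ranged 7.44-fold and 9.78-fold. For Gimap9 the B cell markers and the T cell markers without Thy1 gave ranges of 44.5-fold and 30.2-fold, while over the macrophage and monocyte markers it ranged 2.26-fold and over the endothelial markers 3.14-fold. A small range over a list shows that the levels went together over these samples and does not name the cells that made the RNA.

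**Figure D5:**
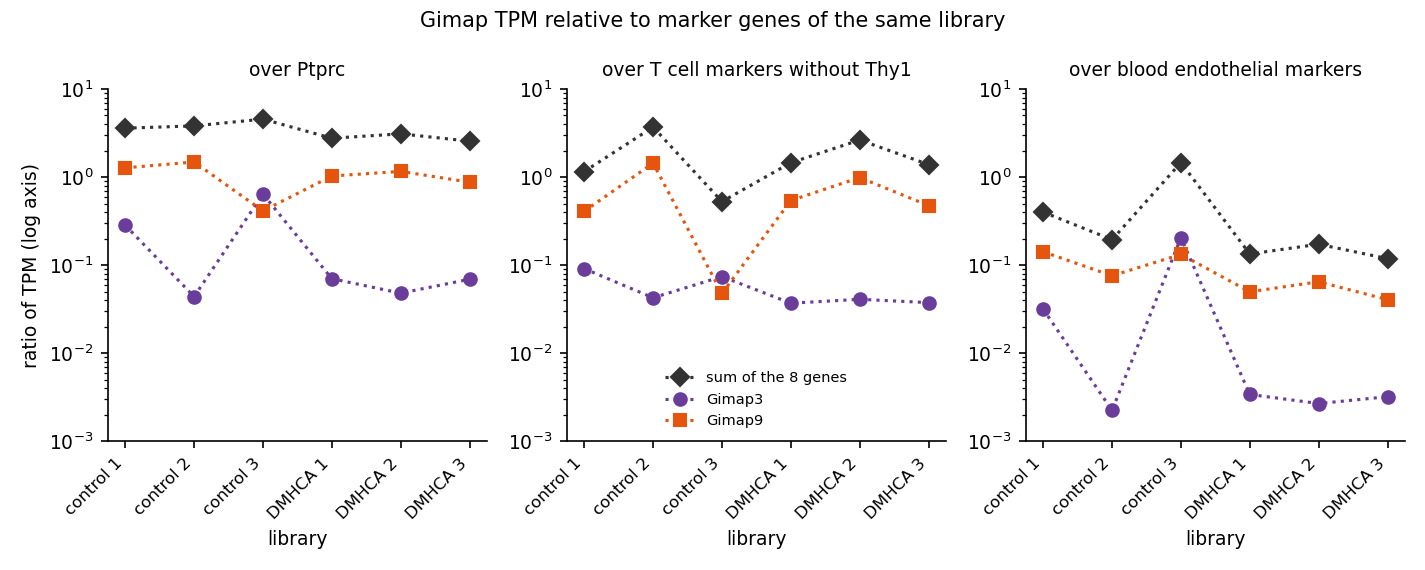
TPM of the 8 genes summed, of Gimap3 and of Gimap9, divided by the TPM of Ptprc, of the T cell markers without Thy1 and of the blood endothelial markers in the same library (log axes). Over Ptprc the sum stays between 2.55 and 4.55, and over the T cell markers Gimap3 stays between 0.0368 and 0.0909 while Gimap9 runs from 0.0476 to 1.44.

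Genes of the pathways around the family were counted by list. Among 21 genes of lymphocyte survival, 1 was lower and 0 higher at an unadjusted p under 0.05, and the median was -0.24, or -0.18 without control library 3. That gene, Bcl2a1b, an antiapoptotic Bcl2 relative named after its values were seen, was at 35.09, 23.87 and 60.21 TPM in controls and 15.67, 14.15 and 18.15 TPM with DMHCA, and it was also the 1 lower gene without control library 3. Il7r, the receptor of the survival cytokine IL-7, was at 2.18, 0.77 and 15.72 TPM in controls and 0.81 to 1.11 TPM with DMHCA. Tnfrsf13c, the receptor of the B cell survival factor BAFF, was at 1.99, 0.19 and 17.19 TPM against 0.24 to 1.03 TPM. Gabarapl2, the partner of Gimap6, was at 97.11, 126.76 and 104.81 TPM against 98.87 to 133.54 TPM, and Bax, a proapoptotic effector, at 136.07, 72.02 and 101.20 TPM against 138.29 to 161.62 TPM. Both are made in most cells.

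Of 15 lymphocyte transcription factors, 1 was lower, 0 were higher and the median was -0.62, and without control library 3, 0 were lower and the median was -0.28. Ikzf3, a lymphocyte zinc finger factor, was at 1.81, 0.03 and 8.76 TPM in controls and 0.17 to 0.42 TPM with DMHCA, and Gata3, which also marks luminal mammary epithelium, was at 72.20, 29.21 and 70.58 TPM against 52.32 to 95.27 TPM. Among 21 interferon-inducible GTPases, which resemble the Gimap family in being GTPases of immune cells, 0 were lower and 0 higher, with a median of -0.67 that became 0.38 without control library 3. Iigp1, one of them, was at 82.56, 10.82 and 281.09 TPM in controls and 154.00, 26.31 and 160.64 TPM in DMHCA libraries 1, 2 and 3. In DMHCA libraries 1 and 3 Iigp1 was above control libraries 1 and 2, an order that no Gimap gene had.

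Neighbours on the chromosome were also followed. Tmem176b and Tmem176a, membrane proteins of myeloid cells that come next after Gimap3, were highest in control library 1. Tmem176b was at 452.20, 311.82 and 329.54 TPM in controls and 308.11, 137.08 and 307.29 TPM with DMHCA. Tmem176a was at 234.18, 141.03 and 136.84 TPM against 123.20, 72.40 and 122.03 TPM. On TMM-scaled counts control library 3 was 0.854 and 0.743 times control library 2. Their log2 fold changes were -0.84 and -0.90. Without control library 3 they were -0.93 and -1.07, where the members' median was -0.85. Zfp775, a zinc finger gene before Gimap8, was at 1.18 to 1.48 TPM in controls and 1.62 to 2.02 TPM with DMHCA. AI854703, between Zfp775 and Gimap8, was at 0.35 TPM or lower in every library. Of the neighbours with a measured ratio of control library 3 to control library 2, AI854703 was at 26.2 from levels close to 0, and Zfp775, Tmem176b and Tmem176a were below 1, against 8.45 or more in 7 members. Aoc1 and Gm44965, listed at 0 in control library 2, have no ratio.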

How the data were processed

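Per the labels and the methods of the study, the authors checked reads with FastQC 0.11.9, trimmed them with cutadapt 2.9 and counted them on mouse genes (mm10) with RSEM 1.3.1 on a Bowtie2 2.4.1 index. The authors deposited RSEM's expected counts, TPM and FPKM for each library. Expected counts, deposited without normalization, were rounded here to whole numbers. TPM, scaled by the authors for transcript length and library total, was used for levels, ratios and shares, and FPKM was not used. Whether strand was used is not given in the sources used here, nor are RSEM's settings.

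Groups follow the sample titles. DMHCA libraries 1 and 3 were summed by a rule that asks for a coefficient of variation below 0.1 and more than 5 times smaller than in any other pair, computed on genes averaging 100 counts or more. edgeR 4.0.16 (R 4.3.3) was run with TMM, filterByExpr (minimum count 10, minimum total 15) and the quasi-likelihood test, with Benjamini-Hochberg adjustment over 19427 genes. The fit was also tested on simulated data, whose outcome is not reported here. DESeq2 1.42.0, other scalings and filters, a replicate block and each library left out in turn were alternatives. Whether the replicate numbers pair the samples was not settled. Deviations of same-numbered libraries correlated at -0.0585, 0.342 and 0.359, and those of unlike-numbered libraries at -0.39 to 0.346. The value 0.346 was for control library 3 and DMHCA library 1, the near-copy of DMHCA library 3, and the next highest was 0.08. The study describes a mouse for each library, which is in doubt for DMHCA libraries 1 and 3.

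The members and gene lists were chosen with earlier results of these data known. The genes named are the members, other Gimap loci, their neighbours (up to 3 on each side), up to 4 genes a list (highest TPM or largest fold change), Ptprc, Abca1, Srebf1 and the 10 genes nearest to the family's mean profile. Genes named outside this rule are marked in the text as chosen after their values were seen. Not every list gene so selected is reported here. Coordinates are from GENCODE M21 (GRCm38), in which 55144 of 55385 genes were found, and promoters from RefSeq.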

Additional observations from a re-analysis of the deposited data

How the results depend on the processing

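Under the alternatives, all 130 log2 fold changes listed for the members were below 0. These count the value of Gimap3 and Gimap5 as 1 feature under each of the pair. Of the 130, 5 passed an adjusted p of 0.05, all with DESeq2 on the 6 libraries as separate samples (Gimap1, Gimap3, Gimap4, Gimap7 and Gimap8). In that fit 2.68% of all genes were called lower. The number of genes with an adjusted p under 0.05 was 0 by edgeR, 244 by DESeq2 on 5 samples, 846 by DESeq2 on 6 libraries and 16 with no filter on low counts, and 0 to 0 with each library left out. The median log2 fold change of the members ran from -2.98 to -0.85 over the libraries left out, and the value -0.85 came without control library 3. It ran from -2.67 to -1.61 over the other 9 alternatives, with -1.61 on the log2(TPM + 0.1) scale. With the replicate number as a block on 6 libraries, the median was -1.67, against -2.54 without the block. In either fit 0 genes passed, and whether the numbers pair the samples was not settled. Over the alternatives the number of list genes lower at an unadjusted p under 0.05 ran from 0 to 17 for T cell markers, 0 to 14 for B cell markers, 1 to 10 for naive and resting lymphocyte genes, 0 to 8 for lymphoid stroma genes, 0 to 7 for effector and NK cell genes, 0 to 6 for pan-leukocyte genes, 0 to 8 for interferon-inducible GTPases, 0 to 7 for survival genes and 4 to 5 for adipocyte markers, where 1.48% to 8.08% of all genes were lower in the same fits. Upper-quartile scaling moved the median of all genes from -0.03 to -0.13 and that of the members to -2.67. Why these values moved was not tested.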

Other observations

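Other transcripts inside the cluster are given as values. Gimap1os, an antisense transcript that overlaps Gimap1, was at 0.68, 0.03 and 4.44 TPM in control libraries 1, 2 and 3 and at 0.18, 0.24 and 0.06 TPM in DMHCA libraries 1, 2 and 3. Since the use of strand is not stated, its reads and those of Gimap1 cannot be told apart with certainty, and Gimap1 counts were not whole in any of the 6 libraries. Gm28053, annotated across Gimap7, Gimap1 and Gimap5 on the same strand, was given 0 to 23.59 expected counts. The noncoding RNA 4833403J16Rik, between Gimap5 and Gimap3, was at 0.63, 0.65 and 3.76 TPM in controls and 0.28, 0.20 and 0.21 TPM with DMHCA. Its neighbour Gm44226, a noncoding RNA on the opposite strand, was at 0.98, 0.44 and 3.87 TPM in controls and 0.93, 0.74 and 0.53 TPM with DMHCA. Control library 3 was the highest for each of the noncoding transcripts named here.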
